A study of Solanum lycopersicum with 4 samples.

Results

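Abscisic acid (ABA) is a plant hormone made from carotenoids. Its level in a tissue depends on the enzymes that cleave its precursor and on those that hydroxylate, and so inactivate, the finished hormone. The committed step of synthesis is the cleavage of epoxycarotenoids by NCED enzymes. Aldehyde oxidase, which needs a sulfurated molybdenum cofactor, then completes the hormone. CYP707A cytochromes P450 start its breakdown. In tomato fruit ABA is known for its part in the onset of ripening, in water relations and in seed development.

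The 6 genes described here are NCED1, NCED2, FLACCA, CYP707A1, CYP707A2 and CYP707A3, chosen by gene ID from a table of 34675 tomato genes. The table lists IDs and names none of the 6 genes. The names come with the list of chosen IDs, and 5 of the 6 symbols (all but CYP707A3) stand in the RefSeq gene table of assembly SLM_r2.1, each on the chromosome that the ID states. Other genes of the pathway include zeaxanthin epoxidase, another NCED, another CYP707A, aldehyde oxidase and the ABA receptors. They were not used here, because none of the table's IDs is listed in the RefSeq table. For the same reason the fruit label was not checked against marker genes.

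Fruit RNA of untreated tomato plants (Solanum lycopersicum, variety Ailsa Craig) was sequenced in 2 libraries per group. The CsMYBF1 group carried a transgene for CsMYBF1, a citrus MYB transcription factor, with 1 library from line D7 (D7 fruit) and 1 from line C2 (C2 fruit). The wild-type group had replicates 1 and 2, called wild-type libraries 1 and 2. The labels name neither the promoter of the transgene nor the stage of the fruit, and do not say whether replicates were separate plants. The p-values therefore measure the spread between these libraries, which is a spread between lines in the CsMYBF1 group and may be technical in wild type.

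Levels are in RPKM, which scales the reads of a gene by its length and by the size of the library. Levels of genes of different length are compared on that scale, within the limit of the length trend described below. The whole reads behind them were recovered from the steps of the RPKM values, with library totals of 12916160 to 21403774 reads. RPKM is a share of a library, and all genes together were shifted between the groups. Over the 16876 genes that averaged 1 RPKM or more, the median log2 fold change was 0.49, CsMYBF1 over wild type. That shift grew with gene length. Each gene is therefore also set against this median and against the trend of all genes at its own length. In bulk fruit, fewer cells that express a gene and less RNA per cell cannot be told apart.

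All 6 genes were read in every library, and all 6 passed the filter on low values. FLACCA was higher in both CsMYBF1 lines than in wild type and was the single gene of the 6 that passed the test (limma, adjusted p = 0.031). NCED1, the more abundant of the listed cleavage enzyme genes, and CYP707A2 were also higher in both lines than in both wild-type libraries. They did not pass (limma adjusted p = 0.13 and 0.22). For NCED2, CYP707A1 and CYP707A3 the groups overlapped. A share of 20.9% of all genes tested was called in either direction with 18.8% called higher and 2.09% called lower, so 1 called gene among 6 is close to the background. Groups that do not overlap, with CsMYBF1 higher, were found for 3 of the 6 genes and for 50.7% of all genes tested. Which groups overlap depended on the scaling. After median-of-ratios scaling NCED1 was at 129 RPKM in D7 fruit and 171 RPKM in C2 fruit, against 85.1 and 184.8 RPKM in wild type, so the groups overlapped, as they then did for CYP707A2. FLACCA stayed apart, at 5.98 and 6.90 RPKM in the lines against 2.39 and 1.90 RPKM in wild type. NCED2 became separate, with both lines (1.65 and 0.666 RPKM) below both wild-type libraries (2.07 and 3.84 RPKM). The share of all genes that separate under this scaling was not counted, so these separations are a description only. As deposited, groups that do not overlap, with CsMYBF1 lower, were found for 17.4% of all genes tested. The 6 genes had a median log2 fold change of 0.75 as deposited, beside the 0.49 of all genes tested. At the lengths of these 6 genes the trend of all genes ran from 0.67 to 1.33, and 3 of the 6 lay below it.

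**Figure D1:**
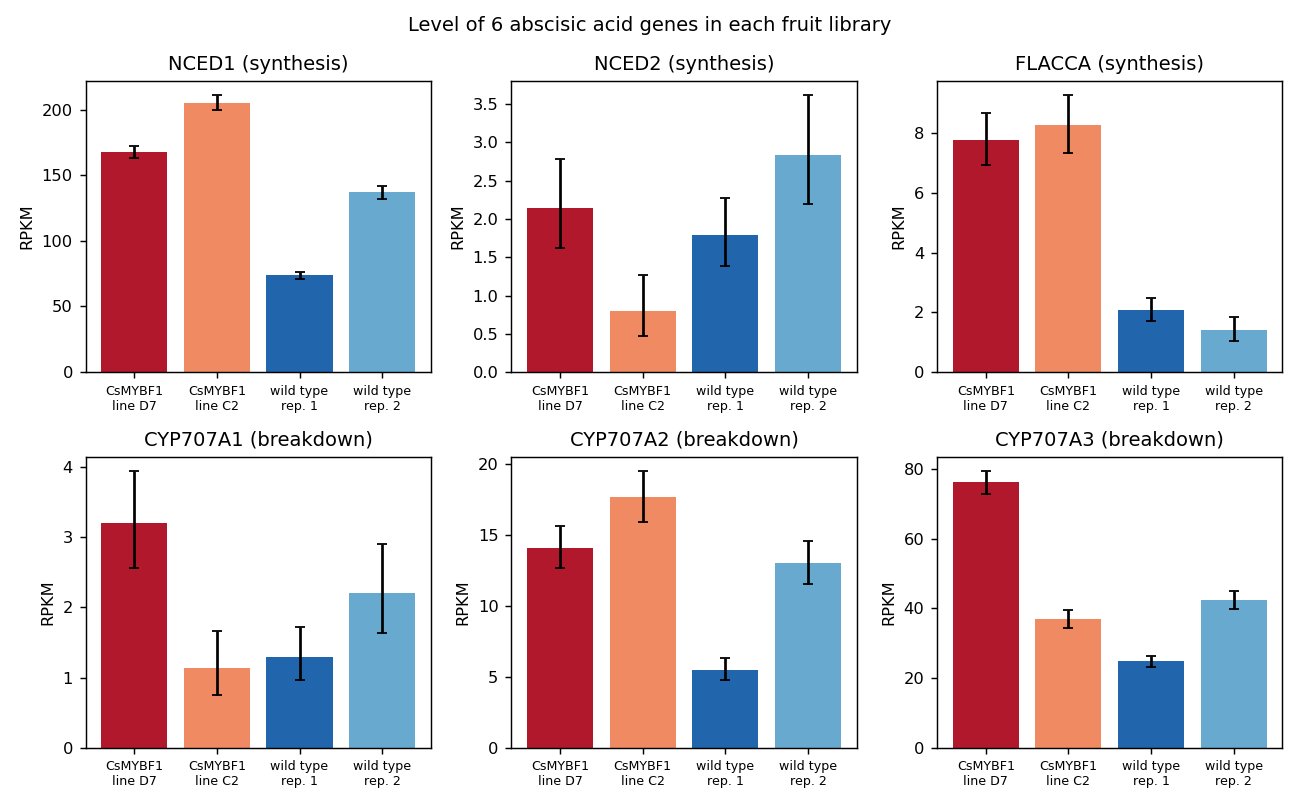
Level of each gene in RPKM (linear axis from 0, a separate scale for each gene) in the 2 CsMYBF1 libraries and the 2 wild-type libraries. Each bar is 1 library and its error bar is the exact 95% Poisson interval of its reads, which covers counting error only. FLACCA stands at 7.77 and 8.28 RPKM in the CsMYBF1 lines and at 2.07 and 1.41 RPKM in wild type.

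The order of the levels was led by the same 3 genes in all 4 libraries. NCED1 was the most abundant, followed by CYP707A3 and then CYP707A2. FLACCA came next in both CsMYBF1 lines and in wild-type library 1, but last in wild-type library 2, below NCED2 and CYP707A1. NCED1 lay above 96.0% of the genes with reads in D7 fruit and above 97.1% in C2 fruit, against 90.2% in wild-type library 1 and 93.8% in wild-type library 2. NCED2 and CYP707A1, the least abundant of the listed NCED and CYP707A genes, held no fixed order. NCED2 was below CYP707A1 in both lines and above it in both wild-type libraries, but the counting intervals of these 2 genes overlapped in every library.

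Among the synthesis genes, NCED1 (Solyc07g056570.1, chromosome 7) encodes the epoxycarotenoid dioxygenase whose loss causes the wilty notabilis mutant of tomato. It reached 168 RPKM in D7 fruit and 205 RPKM in C2 fruit, against 73.7 RPKM in wild-type library 1 and 137 RPKM in wild-type library 2. Both lines were above both wild-type libraries, and the closest pair, line D7 and wild-type library 2, differed by 1.23-fold. The mean was 186 ± 26.6 RPKM in CsMYBF1 fruit and 105 ± 44.7 RPKM in wild-type fruit (SD, n = 2 each), a ratio of 1.77. On the log2(RPKM + 1) scale the change was 0.88 (standard error 0.37, 95% interval -0.039 to 1.80), short of the threshold (limma, adjusted p = 0.13). Counting error is small here, with 2867 to 4820 reads per library, and the wild-type libraries themselves were 1.86-fold apart. The log2 fold change lay 0.38 above the median of all genes and close to their trend at this length, 0.81. With that trend removed it was 0.065, and with median-of-ratios scaling it was 0.24. Quantile normalization, under which the median of all genes was 0.030, gave NCED1 a larger value of 1.12. That value was also short of the threshold (limma adjusted p = 0.105).

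NCED2 (Solyc08g016720.1, chromosome 8) encodes a second dioxygenase of the same type. It had 2.14 RPKM in D7 fruit and 0.798 RPKM in C2 fruit, against 1.79 and 2.84 RPKM in wild-type libraries 1 and 2. Line C2 was below both wild-type libraries, whereas line D7 lay between them. These levels rest on 57 reads in D7 fruit and 18 in C2 fruit, against 67 and 65 in the wild-type libraries, so the 95% counting interval of line C2 ran from 0.473 to 1.26 RPKM. Its log2 fold change of -0.46 (standard error 0.43, 95% interval -1.52 to 0.60) missed the threshold (limma, adjusted p = 0.45). This was the single negative value among the 6 genes. It lay 0.96 below the median of all genes, and 81.2% of the genes tested had a larger log2 fold change. The trend of all genes at its length was 0.74, above the upper end of its interval. With the trend removed the log2 fold change was -1.20, with a limma adjusted p of 0.19.

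FLACCA (Solyc07g066480.2, chromosome 7) encodes the molybdenum cofactor sulfurase that activates aldehyde oxidase, and its loss gives the wilty flacca mutant of tomato. It had 7.77 RPKM in D7 fruit and 8.28 RPKM in C2 fruit, against 2.07 RPKM in wild-type library 1 and 1.41 RPKM in wild-type library 2. The lines were within counting error of each other, with a D7 to C2 ratio of 0.939 (exact 95% interval 0.799 to 1.10), and both were above both wild-type libraries by 3.76-fold to 5.88-fold. The mean was 8.03 ± 0.358 RPKM in CsMYBF1 fruit and 1.74 ± 0.467 RPKM in wild-type fruit (SD, n = 2 each), a ratio of 4.62. These values rest on 321 and 290 reads in the lines, against 120 and 50 reads in wild type.

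FLACCA had a log2 fold change of 1.73 with a 95% interval of 0.90 to 2.56 (standard error 0.34, adjusted p = 0.031 by limma), larger than that of 91.9% of the genes tested and 1.24 above their median. At 2712 bases, FLACCA was the longest of the 6 gene models as recovered. The trend of all genes at that length was already 1.33, and with it removed the log2 fold change was 0.40 with an adjusted p of 0.41 by limma (standard error 0.27). In that length-corrected fit 0.107% of all genes were called. With median-of-ratios scaling the log2 fold change was 1.24 (limma adjusted p = 0.056) and with quantile normalization 1.05 (limma adjusted p = 0.085). With no filter on low values it was 1.73 (limma adjusted p = 0.064). Each of these settings ended the call. Over all genes, quantile normalization called only 17 higher and 0 lower, and the fit with no filter 11 and 0. Median-of-ratios scaling called 540 higher and 1018 lower. The call on FLACCA was also lost without line D7 (log2 fold change 1.77), without line C2 (1.69) and without wild-type library 2 (1.56). It held without wild-type library 1 (1.91). Each of these fits leaves 1 library in a group. The part of gene length in the difference was not tested beyond these values.

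**Figure D2:**
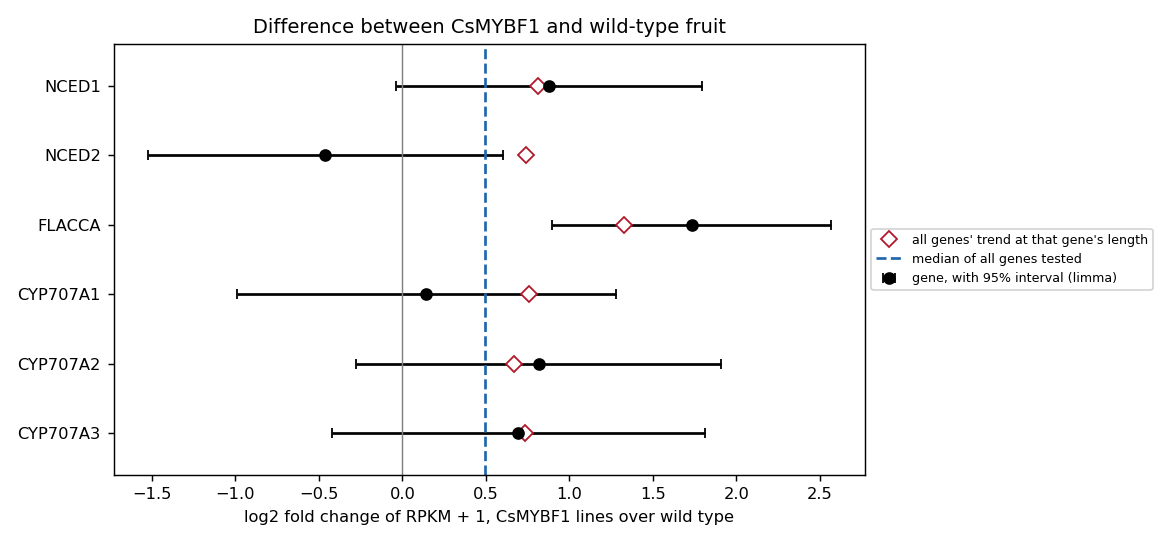
Log2 fold change of RPKM + 1, CsMYBF1 lines over wild type, for each gene (points, with 95% intervals from limma). The dashed line is the median of all genes tested, 0.49, and open diamonds are the trend of all genes at that gene's length. The interval of FLACCA lies above 0, the intervals of the other 5 genes include 0, and the diamond of NCED2 lies to the right of its interval.

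The breakdown genes encode ABA hydroxylases of the CYP707A family, whose products lead to phaseic acid. CYP707A3 (Solyc04g071150.2, chromosome 4) was the most abundant of them in every library. It reached 76.2 RPKM in D7 fruit and 36.9 RPKM in C2 fruit, against 24.8 and 42.3 RPKM in wild-type libraries 1 and 2. Line D7 was above both wild-type libraries, whereas line C2 lay between them. The lines differed by 2.06-fold (exact 95% counting interval 1.90 to 2.24), a wider gap on the log2 scale than that of 90.4% of the genes tested. Between the groups, the log2 fold change of 0.69 (standard error 0.45, 95% interval -0.42 to 1.81) missed the threshold (limma, adjusted p = 0.29). It lay close to the trend at its length, 0.74, and turned to -0.042 with that trend removed.

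CYP707A2 (Solyc08g005610.2, chromosome 8) had 14.1 RPKM in D7 fruit and 17.7 RPKM in C2 fruit, against 5.50 RPKM in wild-type library 1 and 13.0 RPKM in wild-type library 2. The groups did not overlap, but line D7 and wild-type library 2 differed by only 1.08-fold and their counting intervals overlapped. The wild-type libraries were 2.36-fold apart (exact 95% counting interval 1.96 to 2.85), a wider gap than that of 87.9% of the genes tested. Its log2 fold change of 0.82 (standard error 0.44, 95% interval -0.28 to 1.91) missed the threshold (limma, adjusted p = 0.22). The trend at its length was 0.67, and the value was 0.15 with the trend removed.

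CYP707A1 (Solyc04g078900.2, chromosome 4) was the least abundant of the listed hydroxylase genes. It had 3.20 RPKM in D7 fruit and 1.14 RPKM in C2 fruit, against 1.30 and 2.21 RPKM in wild-type libraries 1 and 2. Line D7 was above both wild-type libraries and line C2 was below both, though the counting interval of line C2, 0.745 to 1.67 RPKM, covered the level of wild-type library 1. Read numbers were 86 in D7 fruit and 26 in C2 fruit, against 49 and 51 in wild type. Its log2 fold change of 0.14 (standard error 0.46, 95% interval -0.99 to 1.28) missed the threshold (limma, adjusted p = 0.84). It turned to -0.28 with median-of-ratios scaling, to -0.42 with quantile normalization and to -0.61 with the length trend removed.

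**Figure D3:**
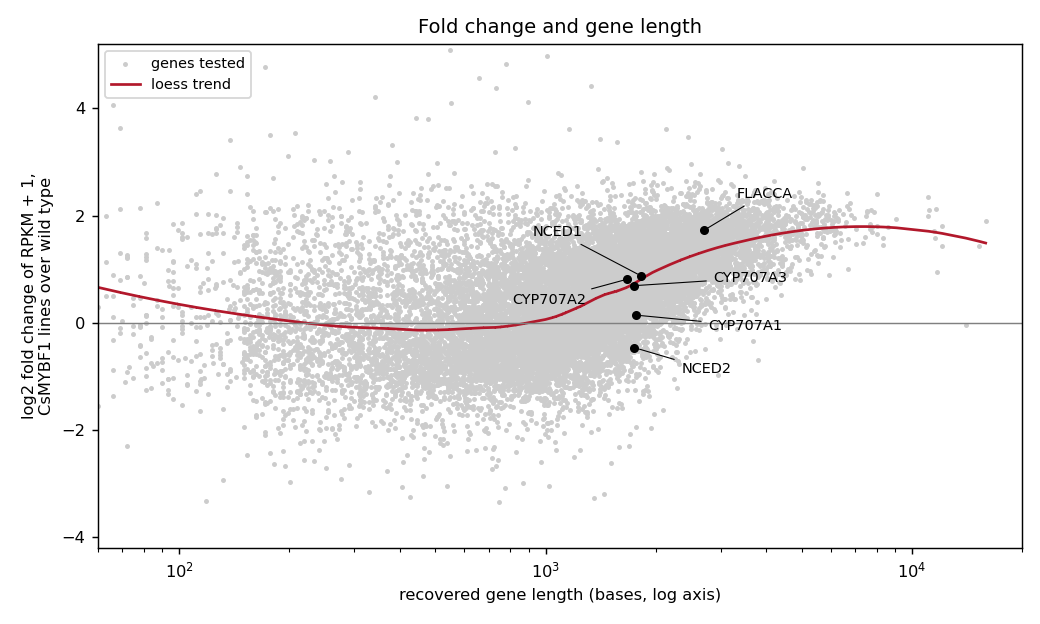
Log2 fold change of RPKM + 1, CsMYBF1 lines over wild type, against recovered gene length (log axis) for the genes tested (grey points), with the loess trend (line) and the 6 genes (black points). 13 genes beyond the vertical range are not drawn. FLACCA lies to the right of the other 5 genes, where the trend is 1.33, and NCED2 and CYP707A1 lie below the trend.

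The 5 genes other than FLACCA have recovered lengths of 1672 to 1818 bases, where the trend ran from 0.67 to 0.81. Of all 6 genes, 3 (NCED1, FLACCA and CYP707A2) lay above the trend at their length and 3 (NCED2, CYP707A1 and CYP707A3) lay below it. Recovered lengths are lower limits where the reads and the length of a gene share a factor.

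The libraries of 1 group also differed among themselves in these genes. In wild type, 5 of the 6 genes were higher in replicate 2 than in replicate 1, by 1.58-fold to 2.36-fold, whereas FLACCA was lower, with a replicate 2 to replicate 1 ratio of 0.681 (exact 95% counting interval 0.479 to 0.954). The exact 95% counting intervals of all 6 ratios, as deposited, left out 1. With the length trend removed, FLACCA was nearly level, at 3.38 RPKM in replicate 1 and 3.24 RPKM in replicate 2. The other 5 genes stayed higher in replicate 2. The share of all genes that were higher in replicate 2 was not counted. Between the lines, NCED2, CYP707A1 and CYP707A3 were higher in D7 fruit, by 2.69-fold, 2.81-fold and 2.06-fold. NCED1 and CYP707A2 were higher in C2 fruit, by 1.22-fold and 1.25-fold. Each line is a single library, so differences between lines and differences between libraries cannot be told apart. Over all genes tested, the wild-type libraries were a median of 0.44 apart on the log2(RPKM + 1) scale and the lines 0.31.

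Synthesis and breakdown transcripts were compared as sums over the listed NCED and CYP707A genes, so further genes of either family are left out. The 2 NCED genes together had 169.8 RPKM in D7 fruit and 206 RPKM in C2 fruit, against 75.5 and 139.7 RPKM in wild type. The means were 188 ± 25.6 RPKM in CsMYBF1 fruit and 108 ± 45.4 RPKM in wild-type fruit (SD, n = 2 each; exact two-sided permutation p = 0.333, the smallest that 2 against 2 libraries allow). The 3 CYP707A genes together had 93.5 RPKM in D7 fruit and 55.7 RPKM in C2 fruit, against 31.6 and 57.6 RPKM in wild type, so the groups overlapped (exact two-sided permutation p = 0.667). Both sums were higher by mean in CsMYBF1 fruit as deposited, by 1.75-fold and 1.67-fold, and both mean differences turned slightly negative with the length trend removed (log2 ratios of -0.045 and -0.053).

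The ratio of summed NCED to summed CYP707A, which a scaling factor common to all genes of a library does not change, was 1.82 in D7 fruit and 3.70 in C2 fruit, against 2.39 and 2.43 in wild type. The wild-type libraries lay between the 2 lines. Means were 2.76 ± 1.33 in CsMYBF1 fruit and 2.41 ± 0.0287 in wild-type fruit (SD, n = 2 each; exact two-sided permutation p = 1). Summed over the listed genes only, NCED transcripts exceeded CYP707A transcripts per length in all 4 libraries. The wild-type libraries gave near-equal ratios, although both of their sums differed by over 1.5-fold. CYP707A3 made up 81.5% of the CYP707A sum in D7 fruit and 66.2% in C2 fruit, against 78.5% and 73.6% in wild type. CYP707A2 made up 15.1% in D7 fruit and 31.7% in C2 fruit, against 17.4% and 22.6%.

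**Figure D4:**
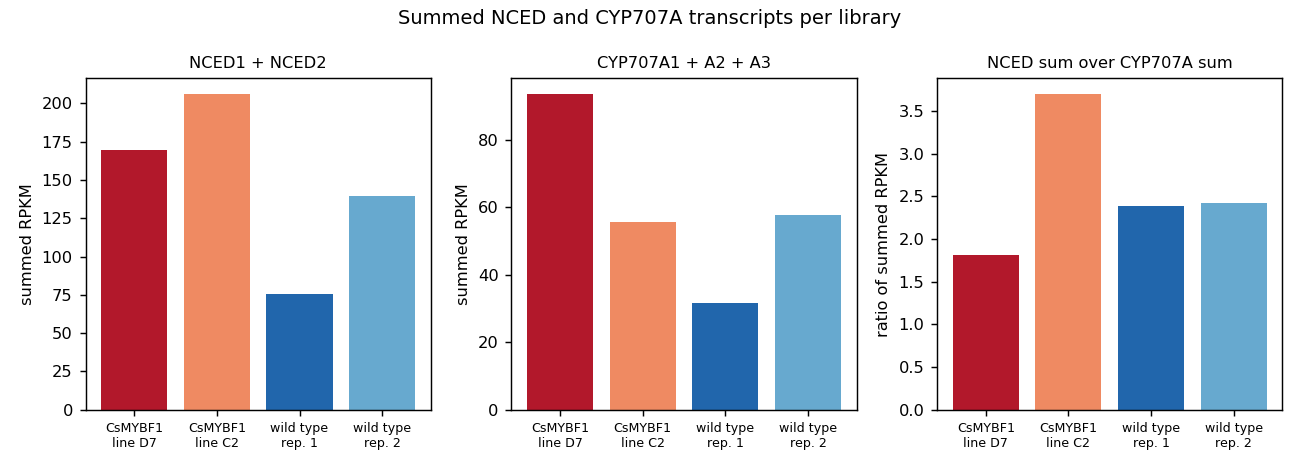
Summed RPKM of the 2 NCED genes (left), summed RPKM of the 3 CYP707A genes (middle) and the ratio of the sums (right), each bar 1 library, with axes from 0. The ratio is 1.82 in D7 fruit and 3.70 in C2 fruit, with wild type between them at 2.39 and 2.43.

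The pattern of NCED1 over the 4 libraries was compared with that of the 9379 other genes averaging 10 RPKM or more, by the distance between log2(RPKM + 1) values centred on each gene's own mean. The nearest were Solyc04g078750.2, at a distance of 0.057, and Solyc12g055750.1, at 0.088, beside a median distance of 1.33. Neither ID is paired with a name in the sources used here. Solyc04g078750.2 had 103 RPKM in D7 fruit and 128 RPKM in C2 fruit, against 44.7 and 80.5 RPKM in wild type. Of the 5 other ABA genes, CYP707A2 was nearest to NCED1, at 0.17, and the others lay between 0.95 and 1.58. With 4 libraries such a likeness is a description only.

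**Figure D5:**
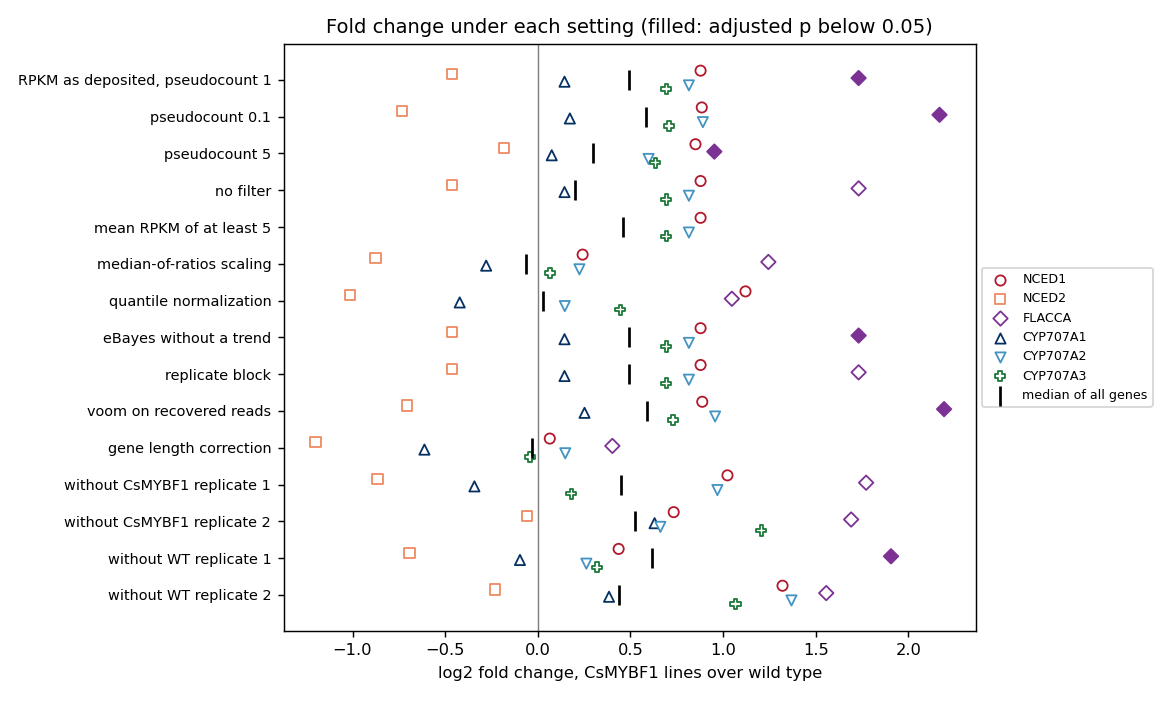
Log2 fold change, CsMYBF1 lines over wild type, of each gene under each processing setting, with filled symbols where the limma adjusted p was below 0.05 and black ticks for the median of all genes. FLACCA is to the right of 0 under every setting drawn that tested it and is filled under 6 of these 14, and NCED2 is to the left of 0 under every setting drawn that tested it. The crossed replicate block is not drawn. The filter at a mean of 5 RPKM leaves out FLACCA, NCED2 and CYP707A1.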

How the data were processed

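Poly(A)-selected RNA of tomato fruit was fragmented and sequenced from random-primed cDNA, per the labels' protocols. The authors deposited RPKM values in 1 table with a column per library. The submitters' processing notes list HTSeq with no version. Aligner, genome build, annotation and use of strand: not given in the sources used here. Columns were matched to samples by line name or replicate number, and groups came from the description of each sample.

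The test was limma (version 3.58.1, R 4.3.3; eBayes with trend) on log2(RPKM + 1), fitted over all 16876 genes averaging 1 RPKM or more, with Benjamini-Hochberg adjustment and a threshold of 0.05. The pseudocount shrinks the fold changes of lowly read genes. The fit was also run on simulated reads that had no shift of all genes and no length trend. That run cannot show how the fit treats such a shift or trend.

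Library totals, gene lengths and whole reads were solved from the steps of the RPKM values, with a tolerance of 0.001 reads, for 24420 of the 24422 genes above 0 in any library (99.99%). With deliberately wrong totals 13.7% of 3000 genes were solved. Library totals were 15227619 (D7), 12916160 (C2), 21403774 (wild-type library 1) and 13101910 (wild-type library 2). Intervals of reads cover counting error only, since PCR reads with no molecular identifiers are not independent. The length trend was a loess fit (span 0.3) per library.

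The rule for naming was to name all 6 genes and the 2 genes nearest in pattern to NCED1. The genes and lists were chosen with earlier results of these data known. Alternatives were other pseudocounts, filters and scalings, eBayes without trend, voom on recovered reads, the length correction, a replicate block and leaving out each library.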

Additional observations from a re-analysis of the deposited data

Results flagged for a closer look

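CYP707A1, a breakdown gene, was above both wild-type libraries in line D7 (3.20 RPKM) and below both in line C2 (1.14 RPKM), against 1.30 and 2.21 RPKM in wild type. For each placement, the counting interval of the line overlapped that of a wild-type library. Such overlap does not show that the levels are equal. The 95% counting interval of D7, 2.56 to 3.95 RPKM, overlapped that of the second wild-type library, 1.64 to 2.90 RPKM, and that of C2 overlapped that of the first. The log2 difference, line D7 minus line C2, was 1.49, and the ratio of 2.81 had an exact 95% counting interval of 1.79 to 4.53. On the log2(RPKM + 1) scale this gap was wider than that of 89.3% of the genes tested, beside 90.4% for CYP707A3 and 84.7% for NCED2. After median-of-ratios scaling D7, at 2.46 RPKM, lay between the wild-type libraries (1.498 and 2.98 RPKM) and C2, at 0.951 RPKM, stayed below both. The difference between the lines was not tested across replicates, because each line is 1 library and both are set against the same wild-type libraries.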

How the results depend on the processing

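FLACCA kept its direction under all 13 alternatives that tested it (the crossed block below aside), with log2 fold changes of 0.40 to 2.19, and its call under 5. Its log2 fold change was 1.73 with no filter (limma adjusted p = 0.064) and with the replicate block (0.065), 1.24 under median-of-ratios scaling (0.056), 1.05 under quantile normalization (0.085) and 0.40 under the gene length correction (0.41). Leaving out a library gave 1.56 to 1.91. CYP707A1, not called at any setting, reversed under median-of-ratios scaling (-0.28), quantile normalization (-0.42) and the length correction (-0.61), and ranged from -0.34 to 0.63 when a library was left out. CYP707A3 reversed to -0.042 with the length correction. NCED1, NCED2 and CYP707A2 kept their direction and stayed uncalled under every one of these alternatives that tested them, but single libraries moved their values. Leaving out a library gave 0.44 to 1.32 for NCED1, -0.87 to -0.059 for NCED2, with the value nearest 0 without line C2, 0.26 to 1.37 for CYP707A2 and 0.18 to 1.21 for CYP707A3. The summed NCED log2 ratio of 0.80 became 0.13 under median-of-ratios scaling and -0.045 under the length correction, and 0.43 to 1.32 without single libraries. The summed CYP707A log2 ratio of 0.74 became 0.051 and -0.053 under these 2 settings, and 0.32 to 1.24 without single libraries. The log2 ratio of NCED over CYP707A, 0.20, ranged from -0.41 to 0.62 without single libraries.

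Over all genes, 3179 were called higher and 352 lower. Without a filter these limma counts were 11 and 0, under median-of-ratios scaling 540 and 1018, under quantile normalization 17 and 0, under the replicate block 24 and 0, and under the length correction 18 and 0. At an unadjusted p below 0.05 the lower genes numbered 1364, 3549, 2563, 956 and 1932 in the same order. The overall median log2 fold change, 0.49 as deposited, was -0.062 under median-of-ratios scaling and -0.030 under the length correction. Leaving out a library gave 5 to 3485 higher and 0 to 476 lower. Such a fit assumes that the lone library of a group varies like the other group. Apart from the construction of these fits, the cause was not tested. Replicate numbers mark no shared plant or batch in the labels, and same-numbered libraries deviated with a correlation of -0.16 across genes. The crossed block, chosen after seeing the data, pairs D7 with the second wild-type library and gave 4071 higher and 816 lower. Depth limits NCED2 and CYP707A1 most, with 18 and 26 reads in line C2.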

Other observations

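2 ratios within a library, chosen after their values were seen, separated the groups as deposited. NCED2 made up 1.26% of the summed NCED RPKM in line D7 and 0.387% in line C2, against 2.38% and 2.03% in wild type. FLACCA stood at 4.64% of the level of NCED1 in line D7 and 4.03% in line C2, against 2.81% and 1.03% in wild type. Each gave an exact two-sided permutation p of 0.333, the smallest possible with 2 against 2 libraries, among 7 sums, ratios and shares compared. With the length trend removed, the groups overlapped for FLACCA over NCED1, at 3.67% in line D7 and 3.07% in line C2, against 3.68% and 1.67% in wild type. They stayed apart for the NCED2 share, at 1.099% and 0.272% in the lines, against 2.55% and 2.15% in wild type. That share rests on 57 reads of NCED2 in line D7 and 18 in line C2, against 67 and 65 in wild type. Counting error was not carried into the share, so the separation is a description only.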
